A study of Oreochromis niloticus with 6 samples.

Results

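Mucous cells are the secretory cells of the gill epithelium that release mucins and other proteins onto the gill surface. The genes described here were chosen by name, as rows of the expression table called muc followed by a digit, agr2, spdef or fcgbp. Of 40538 rows, 2 met this rule, agr2 (MSTRG.33896) and SPDEF (MSTRG.20655). No row carried a muc name or the name fcgbp, so the mucins enter below through the annotation columns of the table and not through gene names. Both genes had a mean of at least 1 FPKM (mapped fragments scaled to transcript length and library size) and entered the test.

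Gel-forming mucins are very large proteins that are folded and linked by disulfide bonds in the endoplasmic reticulum (ER), decorated with O-linked sugars in the Golgi and stored in granules until they are secreted. AGR2 is a protein disulfide isomerase relative of the ER, and mice that lack it make little intestinal mucin. SPDEF is an ETS family transcription factor that drives the maturation of goblet cells, the mucous cells of the mouse airway and intestine. Mucus on the fish gill is known as a barrier to microbes and particles and as a layer that oxygen has to cross.

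Libraries were made from total RNA of gill, a tissue of several cell types, from Nile tilapia (Oreochromis niloticus) of the genetically improved farmed strain, known as GIFT. The 3 libraries labelled hypoxia came from fish held in water in which nitrogen had lowered dissolved oxygen to about 1 mg/L, and the 3 labelled control from fish at 5 mg/L, all sampled at 96 h. The labels do not tie a library to a tank or a fish, nor do they mention pooling. The p-values therefore measure only the spread between these samples, which may be technical. The comparison asks how gill transcripts differ after this exposure.

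Summed FPKM was 466826 to 483691 in the libraries labelled hypoxia and 438405 to 455738 in those labelled control, without overlap. The steps between low values gave relative depths of 1 to 1.07 in the libraries labelled hypoxia and 1.09 to 1.21 in those labelled control. Hypoxia replicate 1 was the unit of these depths. The number of sequenced fragments is unknown. Pairs of libraries correlated at 0.853 to 0.901 within a group and at 0.80 to 0.854 between groups, taken across genes on the log2(FPKM + 1) scale, and genes are no independent replicates. egln3, a prolyl hydroxylase gene that is known to be induced by low oxygen, was at 2.55 to 3.95 FPKM in the libraries labelled hypoxia and 46.4 to 112 FPKM in those labelled control. This is the opposite of its known response, so the groups are called by their labels and every direction rests on them. Gill epithelial markers were expressed, with 14 of 14 rows at a mean of 1 FPKM or more, as were 13 of 17 ionocyte rows. Among the epithelial rows, MSTRG.27259 and MSTRG.27258, copies of the gene cldne, were at 0 FPKM in most libraries.

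agr2 was at 159, 279 and 103 FPKM in replicates 1, 2 and 3 labelled hypoxia, against 64.0, 60.2 and 61.7 FPKM in the replicates labelled control. All 3 libraries labelled hypoxia lay above all 3 labelled control, and the lowest of them was 1.6 times the highest control value. The means were 181 ± 90.2 FPKM in the libraries labelled hypoxia and 62.0 ± 1.93 FPKM in those labelled control (SD, n = 3 each), a 2.91-fold difference. On the log2(FPKM + 1) scale the difference was 1.41 ± 0.35 SE, with a 95% interval of 0.56 to 2.26. In the limma test over 25111 rows this did not pass the threshold of 0.05 (adjusted p = 0.0698). In the exact permutation test over the 6 libraries p was 0.1, two-sided, which is the smallest that 3 against 3 can give.

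The groups thus did not overlap for agr2, as was the case for 33.2% of all tested rows in either direction. Over all tested rows, 19.1% had the libraries labelled hypoxia above those labelled control without overlap, and 3.46% were called higher at an adjusted p under 0.05. An unadjusted p as small as that of agr2 or smaller was found in 2346 rows. With rows under a mean of 5 FPKM left out, fewer rows were tested and agr2 passed (adjusted p = 0.0484). Its adjusted p was 0.0535 to 0.173 with any 1 library left out.

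The libraries labelled hypoxia differed among themselves in agr2 and the controls hardly did. The highest value was 2.72 times the lowest among the libraries labelled hypoxia and 1.06 times among those labelled control. Their SDs on the log2 scale were 0.72 and 0.04, at or above those of 86.7% and 3.9% of tested rows. The spread of agr2 among the libraries labelled hypoxia was known when these genes were chosen, so its rank is only a description. Without hypoxia replicate 2 the difference of means was 2.12-fold, and without hypoxia replicate 3 it was 3.54-fold. In hypoxia replicate 2, where agr2 was highest, the 11 rows annotated to the hemoglobin complex made up 12.3% of the summed FPKM, against 5.22% and 6.60% in the other libraries labelled hypoxia and 0.670% to 8.37% in those labelled control. The part of blood content in the agr2 values was not tested. With each library scaled to the same sum the log2 difference of agr2 was 1.31, and with median-of-ratios scaling 1.32.

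agr2 was among the more abundant transcripts of the gill. Its FPKM was at or above that of 99.0% to 99.6% of rows in the libraries labelled hypoxia and 98.0% to 98.2% in those labelled control. In these whole gill pieces, more mucous cells and more agr2 RNA per cell cannot be told apart.

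SPDEF was much less abundant and overlapped between the groups. It was at 3.70, 2.10 and 3.70 FPKM in replicates 1 to 3 labelled hypoxia, against 2.18, 3.40 and 2.00 FPKM in those labelled control. Hypoxia replicate 2, the library highest in agr2, was the lowest of its group in SPDEF, and control replicate 2 lay close to the upper libraries labelled hypoxia. The means were 3.17 ± 0.927 FPKM in the libraries labelled hypoxia and 2.53 ± 0.762 FPKM in those labelled control (SD, n = 3 each), and the log2 difference was 0.24 ± 0.25 SE with a 95% interval of -0.36 to 0.83 (limma, adjusted p = 0.589; exact permutation p = 0.3). SPDEF stood at or above 53.9% to 65.8% of rows in the libraries labelled hypoxia and 56.1% to 64.9% in those labelled control. Neither member was therefore called, where 6.77% of all tested rows were called in either direction.

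**Figure D1:**
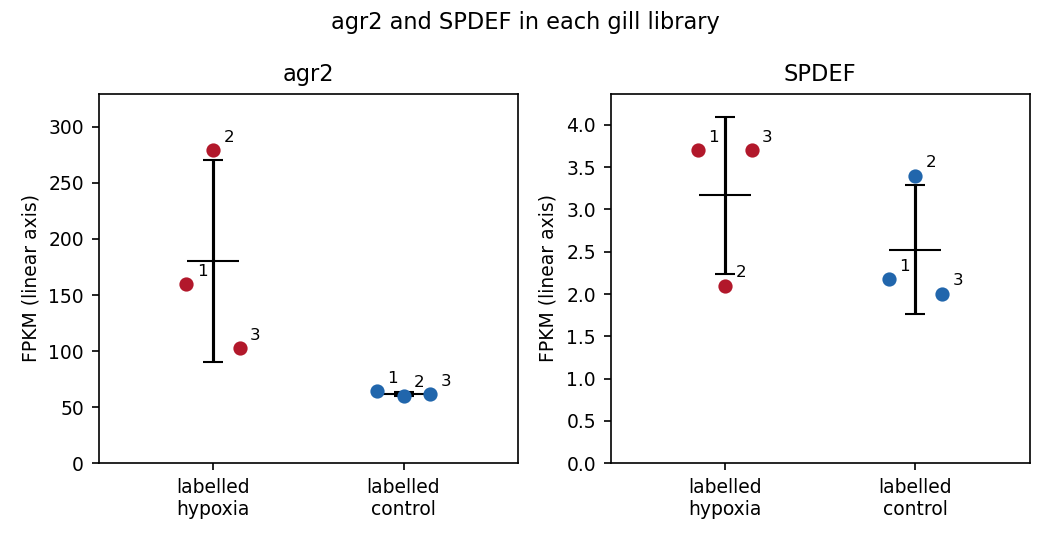
FPKM of agr2 (left) and SPDEF (right) on linear axes in the 3 libraries labelled hypoxia (red) and the 3 labelled control (blue). Points are libraries with their replicate number, horizontal lines are means and bars are 1 SD; agr2 spans 103 to 279 FPKM in the libraries labelled hypoxia, above 60.2 to 64.0 FPKM in those labelled control, and SPDEF overlaps.

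**Figure D2:**
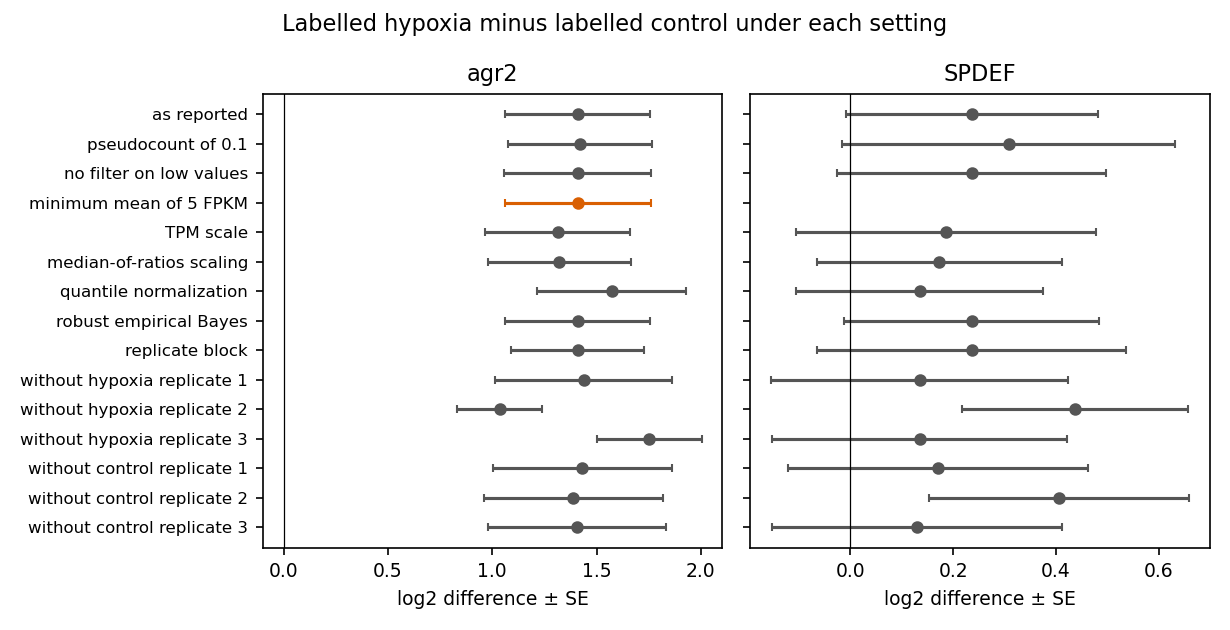
Log2 difference, labelled hypoxia minus labelled control, of agr2 (left) and SPDEF (right) under the reported fit and each alternative; points are estimates, bars are ± 1 SE, and orange marks an adjusted p under 0.05. agr2 lies between 1.03 and 1.75 and passes with a minimum mean of 5 FPKM (orange), and SPDEF lies between 0.13 and 0.44; it is not tested with that minimum.

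The table places each member in a KEGG orthology group with other genes, and the relatives of agr2 did not follow it. agr2 shares K05360 with txndc12, another small thioredoxin-fold protein of the ER, and with MSTRG.7091, which has no symbol. txndc12 was at 15.2, 15.5 and 15.4 FPKM in the libraries labelled hypoxia, against 24.3, 21.7 and 20.4 FPKM in those labelled control. MSTRG.7091 was at 83.1, 102 and 71.0 FPKM in the libraries labelled hypoxia, against 115, 118 and 159 FPKM in those labelled control. Both lay lower in the libraries labelled hypoxia without overlap, on the other side from agr2, as did 14.0% of all tested rows. In the limma test txndc12 was called lower (adjusted p = 0.0466), as were 3.30% of all tested rows, and MSTRG.7091 was not called (adjusted p = 0.115). These relatives were looked up after values had been seen, so this is only a description. Whether the call of txndc12 holds with a library left out was not tested.

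SPDEF shares K17101 with elf3 and ehf, ETS factors of epithelial cells. elf3 was at 58.3, 50.2 and 48.0 FPKM in the libraries labelled hypoxia, against 85.4, 111 and 92.1 FPKM in those labelled control, and fell by 0.86 ± 0.14 SE on the log2 scale (limma, adjusted p = 0.0248). ehf was at 25.3, 27.0 and 30.7 FPKM in the libraries labelled hypoxia, against 51.4, 95.8 and 57.8 FPKM in those labelled control, and fell by 1.22 ± 0.24 SE (adjusted p = 0.0418). Both also stand in the list of secretory cell transcription factors, of which 8 of 12 rows could be tested. These were the 2 called lower, where 3.30% of all tested rows were, none was called higher, and the list median was 0.19, against 0.05 over all tested rows. The other 6 tested rows were foxq1a, CREB3L4, creb3l1, foxa3, klf4 and gfi1b. Of these, gfi1b was matched through the listed name gfi1 but is a separate gene and no known secretory cell factor. The calls were lost for elf3 with any library other than control replicate 1 left out (adjusted p = 0.0512 to 0.0906) and for ehf with any library left out (0.0523 to 0.136).

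Gel-forming mucins were sought through the annotation of the table. In all, 15 rows were assigned to the KEGG orthology groups of gel-forming mucins (9 to K10955 and 5 to K13908, of which 1 to both) or to a mucus layer in the gene ontology (8 rows). Such assignments go by sequence similarity: they also include otog, an inner ear relative of the mucins, and MSTRG.12804, whose further terms name the muscle sarcomere. None of these rows other than otog has a symbol, and they were looked up after values had been seen, so they are given as values without a test. At a mean of 1 FPKM or more there were 6, of which 3 had the libraries labelled hypoxia above those labelled control, 1 below and 2 overlapping. With median-of-ratios scaling MSTRG.12804 also lay below, so that 2 lay below and 1 overlapped. Over all tested rows 19.1% lay above and 14.0% below without overlap. Of the 3 above, MSTRG.11787 reached a mean of 1 FPKM only through the libraries labelled hypoxia. Its means were 2.36 and 0.0945 FPKM (labelled hypoxia and labelled control). Its place among the 3 was thus tied to the filter and adds nothing to the count.

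The most abundant of them in the libraries labelled hypoxia was MSTRG.33505, of K10955. It was at 111, 347 and 69.9 FPKM in replicates 1 to 3 labelled hypoxia, against 6.51, 19.8 and 16.0 FPKM in those labelled control. The means were 176 ± 150 and 14.1 ± 6.84 FPKM (labelled hypoxia and labelled control, SD, n = 3 each), a 12.5-fold difference that became 6.42-fold without hypoxia replicate 2. The libraries labelled hypoxia stood in the same order as for agr2, replicate 2 highest and replicate 3 lowest. Of the 4803 tested rows in which the libraries labelled hypoxia lay above, 13.5% had this order.

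MSTRG.21650, of K13908, was at 21.4, 17.9 and 14.5 FPKM in the libraries labelled hypoxia, against 1.88, 6.85 and 5.18 FPKM in those labelled control. MSTRG.11787, annotated to the mucus layer alone, was at 2.78, 2.44 and 1.87 FPKM in the libraries labelled hypoxia, against 0.0936, 0.138 and 0.0523 FPKM in those labelled control. In both, replicate 1 was the highest of the libraries labelled hypoxia, unlike in agr2. MSTRG.22012, of K13908, lay on the other side, at 16.3, 12.8 and 12.9 FPKM in the libraries labelled hypoxia, against 27.0, 26.1 and 21.6 FPKM in those labelled control; this row joins 4 gene identifiers, so its value may mix genes.

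MSTRG.3926, of K13908, overlapped, at 6.66, 14.2 and 23.4 FPKM in the libraries labelled hypoxia, against 11.9, 3.14 and 11.9 FPKM in those labelled control. MSTRG.12804 was at 2.88 to 9.25 FPKM in the libraries labelled hypoxia and 8.72 to 10.3 FPKM in those labelled control. The other 9 rows were below a mean of 1 FPKM. Among them MSTRG.34022 was at 0.302 to 0.551 FPKM in the libraries labelled hypoxia and 0.0871 to 0.182 FPKM in those labelled control. MSTRG.17761 was at 0.152 to 0.327 and 0.0207 to 0.0772 FPKM (labelled hypoxia and labelled control). A further 6 rows stayed under 0.1 FPKM in every library, and otog overlapped at 0.0366 to 0.0776 and 0.0324 to 0.104 FPKM (labelled hypoxia and labelled control).

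**Figure D3:**
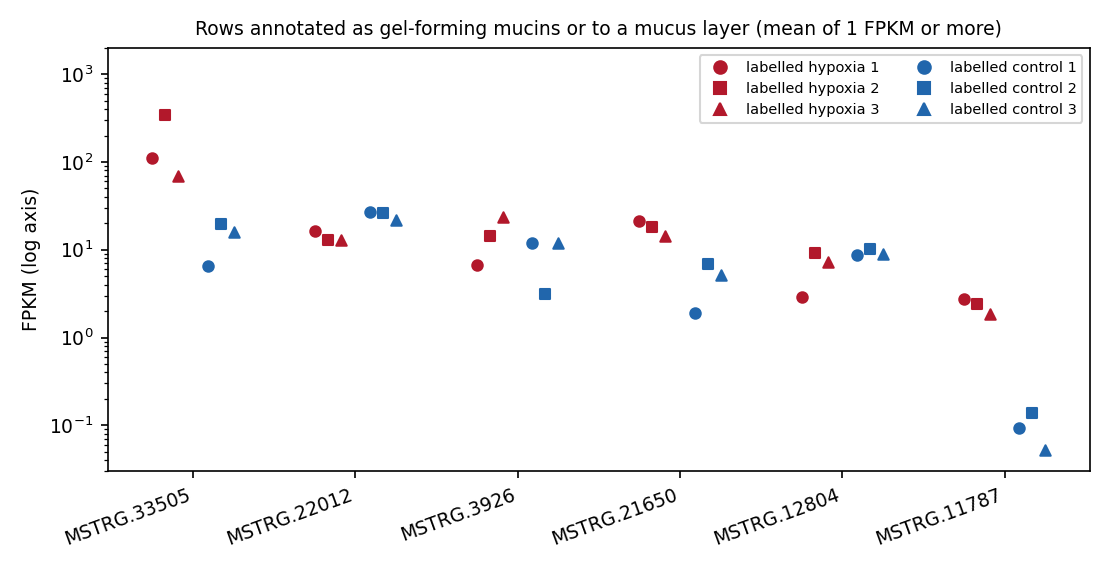
FPKM (log axis) of the 6 rows at a mean of 1 FPKM or more that the table annotates as gel-forming mucins or to a mucus layer, in each library labelled hypoxia (red, left in each pair) and labelled control (blue); symbols mark the replicate. MSTRG.33505, MSTRG.21650 and MSTRG.11787 lie higher in the libraries labelled hypoxia, MSTRG.22012 lower, and MSTRG.3926 and MSTRG.12804 overlap.

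Enzymes that attach and extend the O-linked sugars of mucins showed no common direction. Of 43 tested rows, from 63 in the table, 1 rose, 2 fell and 40 did not pass, with a list median of 0.01, against 0.05 over all tested rows. Over all tested rows 3.46% were called higher and 3.30% lower. galnt16, an enzyme that adds the first sugar, rose to 8.40, 17.2 and 5.94 FPKM in the libraries labelled hypoxia, against 1.33, 1.33 and 2.21 FPKM in those labelled control (log2 difference 2.03 ± 0.37 SE, limma adjusted p = 0.0345). Its libraries labelled hypoxia stood in the same order as for agr2, as in 13.5% of the tested rows in which these libraries lay above. Its 6.47-fold difference of means rests on these few values. GALNT8 (MSTRG.11281), of the same enzyme family, fell to 13.1 ± 1.33 FPKM in the libraries labelled hypoxia, against 26.0 ± 3.18 FPKM in those labelled control (SD, n = 3 each, adjusted p = 0.0204). The other tested rows named GALNT8 overlapped between the groups, and none of them was called. By means, MSTRG.11282 was lower in the libraries labelled hypoxia, and MSTRG.11879 and MSTRG.18388 were higher there.

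c1galt1b (MSTRG.4803), of the enzyme that builds the core 1 sugar on mucins, fell to 13.5, 10.4 and 11.6 FPKM in the libraries labelled hypoxia, against 18.6, 19.4 and 19.6 FPKM in those labelled control (limma, adjusted p = 0.0353). The other tested rows named c1galt1b were MSTRG.4797, MSTRG.4799 and MSTRG.4802. They also lay lower in the libraries labelled hypoxia without overlap, as did 14.0% of all tested rows, and none of them was called. Several rows carry the names of GALNT8, c1galt1b and ST3GAL1, and near-identical copies can share reads, so a value of 1 copy is uncertain. With 1 library left out galnt16 kept its call without hypoxia replicate 2 and lost it in the other 5 cases (adjusted p = 0.0586 to 0.107). c1galt1b (MSTRG.4803) lost its call with any library left out (0.0582 to 0.113). GALNT8 (MSTRG.11281) lost its call without hypoxia replicates 1 or 3 or control replicates 2 or 3 (0.0641 to 0.0718).

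Genes of the ER machinery that folds secreted proteins lay mostly on the other side from agr2. Of 25 tested rows, 6 fell, none rose and 19 did not pass, and the list median was -0.63, against 0.05 over all tested rows. Over all tested rows 3.30% were called lower. ero1a, the oxidase that recharges protein disulfide isomerases and a known target of the hypoxia-inducible factor in mammals, fell to 4.74, 4.35 and 4.69 FPKM in the libraries labelled hypoxia, against 57.0, 31.6 and 29.4 FPKM in those labelled control, 8.56-fold lower (log2 difference -2.79 ± 0.26 SE, limma adjusted p = 0.00978). sdf2l1, a partner of the ER chaperone HSPA5, fell to 15.7 ± 0.439 FPKM in the libraries labelled hypoxia, against 31.5 ± 0.519 FPKM in those labelled control (SD, n = 3 each).

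Chaperones of the ER lumen were among the 6. HSPA5 (MSTRG.9553) fell to 49.5, 58.0 and 38.6 FPKM in the libraries labelled hypoxia, against 110, 144 and 180 FPKM in those labelled control (adjusted p = 0.0216). Other tested rows named HSPA5 went both ways, and none of them was called. By means, MSTRG.24147, MSTRG.32929 and MSTRG.24169 were lower in the libraries labelled hypoxia. MSTRG.24160 had a higher mean there, at 5.93 against 0.0655 FPKM, as had MSTRG.24154, at 6.47 against 0.954 FPKM. Both overlapped between the groups. In hypoxia replicate 2 they were at 0.0874 and 0.966 FPKM, within the range of the libraries labelled control. MSTRG.24160 reached a mean of 1 FPKM only through hypoxia replicates 1 and 3, at 6.07 and 11.6 FPKM. Copies can share reads, so the value of a single copy is uncertain. hsp90b1, the ER form of HSP90, fell to 65.0 ± 13.0 FPKM in the libraries labelled hypoxia, against 151 ± 13.5 FPKM in those labelled control (SD, n = 3 each). The cochaperone gene dnajc3b and its copy dnajc3a also fell, to 16.4 and 5.52 FPKM in the libraries labelled hypoxia, against 36.7 and 9.30 FPKM in those labelled control. Leaving out hypoxia replicate 1, or either of control replicates 2 and 3, left 2 rows that fell, and leaving out hypoxia replicate 3 left 3. When hypoxia replicate 2 was left out, 4 rows fell and 1 was called higher.

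Stress sensing by ern2 (IRE1 beta), which in mice is made in mucous epithelia, was looked at after values had been seen. Its rows MSTRG.24375 and MSTRG.24376 were at 7.94 ± 2.28 and 2.84 ± 0.651 FPKM in the libraries labelled hypoxia, against 7.01 ± 0.982 and 2.31 ± 0.333 FPKM in those labelled control (SD, n = 3 each), and neither passed (limma, adjusted p = 0.727 and 0.513). xbp1, the transcription factor that IRE1 proteins activate, was at 130, 48.3 and 129 FPKM in the libraries labelled hypoxia, against 62.3, 215 and 94.3 FPKM in those labelled control. It overlapped widely (adjusted p = 0.850), and in the libraries labelled hypoxia it was lowest in replicate 2, where agr2 was highest.

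Of 21 tested rows of granule exocytosis, 1 rose, 2 fell and 18 did not pass, where 3.46% of all tested rows were called higher and 3.30% lower. These counts are small, and that of rows that rose is near the share over all rows. Both rows that fell carry the name of 1 gene, rab3db. The list median was -0.10, against 0.05 over all tested rows. marcksa, a copy of the gene for a substrate of protein kinase C that guides mucin granules in mammalian airway cells, rose to 64.2, 67.3 and 68.1 FPKM in the libraries labelled hypoxia, against 31.7, 35.0 and 38.8 FPKM in those labelled control (log2 difference 0.90 ± 0.11 SE, limma adjusted p = 0.0139). MARCKS is made in many cell types. Both rows of rab3db, a copy of the gene of a small GTPase on secretory granules, fell. They were at 8.13 ± 1.95 and 5.98 ± 0.217 FPKM in the libraries labelled hypoxia, against 17.6 ± 0.119 and 13.6 ± 3.27 FPKM in those labelled control (SD, n = 3 each, MSTRG.6739 and MSTRG.6740, adjusted p = 0.0249 and 0.0306). With 1 library left out, the number that fell was 0 without hypoxia replicate 1 or control replicates 2 or 3 and 1 without hypoxia replicate 3 or control replicate 1, and marcksa lost its call without hypoxia replicates 1 or 3 or control replicate 2.

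**Figure D4:**
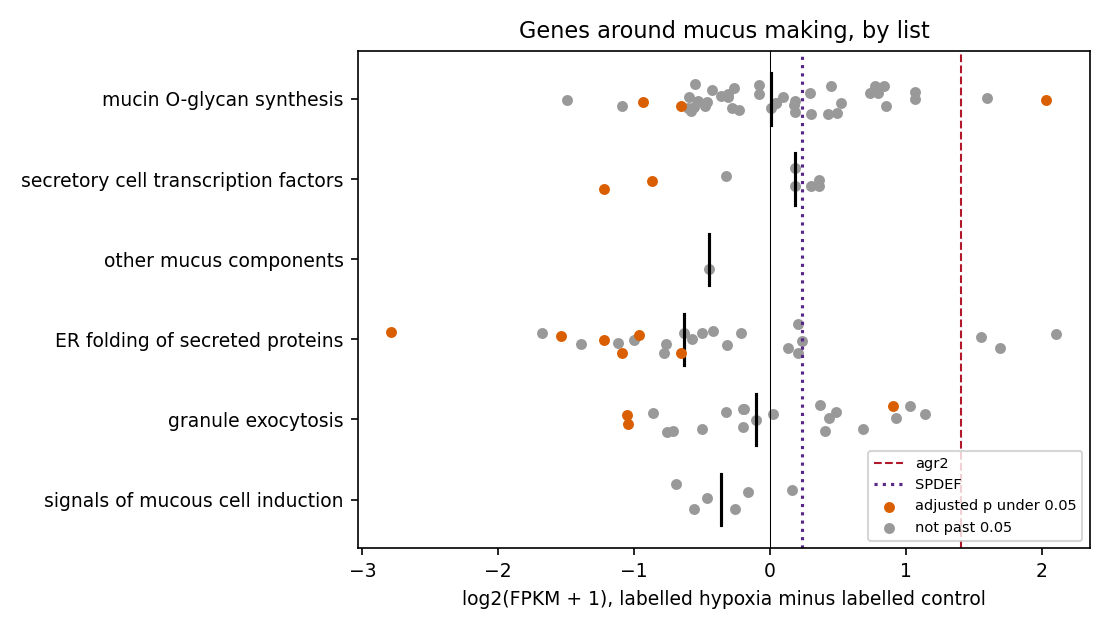
Log2 difference, labelled hypoxia minus labelled control, of each tested row in the 6 lists of genes around mucus making; orange points have an adjusted p under 0.05, grey points do not, and black bars are list medians. The ER folding list has its median at -0.63 and 6 orange points, all to the left, while the dashed line marks agr2 at 1.41 and the dotted line SPDEF at 0.24.

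The remaining lists held few rows and no call. Of 8 names listed for signals of mucous cell induction, 3 matched a row. Of 14 names listed for other mucus proteins, 1 did. Nothing can be said here of the genes whose names matched no row. Of 6 rows of genes tied to signals known to raise mucous cell number in mammals, none passed, and their median was -0.36. Genes that pass on such signals and genes that dampen them stand together here, so the median gives no direction of signalling. EGFR (MSTRG.26337), the epidermal growth factor receptor, was at 20.8 ± 1.62 FPKM in the libraries labelled hypoxia and 29.2 ± 3.23 FPKM in those labelled control (SD, n = 3 each; limma, adjusted p = 0.0778). il13ra2, of a receptor for interleukin 13 that is known as a decoy, was at 21.5 ± 2.59 and 32.7 ± 8.06 FPKM (labelled hypoxia and labelled control, limma adjusted p = 0.149). A lower value of il13ra2 is thus no sign of a weaker signal. Of 3 rows of other mucus proteins, all named LYZ, 1 could be tested. It was at 2.70, 18.8 and 7.74 FPKM in the libraries labelled hypoxia, against 9.28, 14.6 and 9.11 FPKM in those labelled control, with wide overlap (adjusted p = 0.681).

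Markers of other cell types in the gill pieces also differed between the groups; over all tested rows 3.46% were called higher and 3.30% lower. Of 8 leukocyte rows 4 rose and none fell, and their summed FPKM was 499.5 to 509.9 in the libraries labelled hypoxia and 238 to 257 in those labelled control. Of 17 tested skeletal muscle rows 7 rose and none fell, with sums of 1117 to 1412 and 559 to 805 FPKM (labelled hypoxia and labelled control). Of 11 tested cartilage rows 2 rose and none fell, with sums of 49.1 to 103 and 34.6 to 38.6 FPKM.

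Epithelial rows went both ways. Of 14 epithelial rows 1 fell, a row of the tight junction gene cldne (MSTRG.32269). Without overlap 4 lay above and 5 below, where 19.1% and 14.0% of all tested rows did. The sums overlapped, at 2970 to 4096 FPKM in the libraries labelled hypoxia and 2979 to 3422 FPKM in those labelled control. None of 13 tested ionocyte rows passed, with sums of 386 to 495 and 436 to 510 FPKM (labelled hypoxia and labelled control). None of 9 tested endothelial rows or 5 tested red blood cell rows passed, with sums of 72.3 to 97.4 and 124 to 216 FPKM in the libraries labelled hypoxia, against 68.1 to 80.6 and 56.1 to 245 FPKM in those labelled control. The red blood cell sums leave out most of the hemoglobin signal. The 11 rows annotated to the hemoglobin complex made up 5.22% to 12.3% of the summed FPKM in the libraries labelled hypoxia. In those labelled control they made up 0.670% to 8.37%. No marker row was at 0 in every library. The part of these cell types in the values of agr2 and of the rows annotated as mucins was not tested. No leukocyte row was called without hypoxia replicate 3, and 1 was called without hypoxia replicate 1 or control replicate 2. No muscle row was called without hypoxia replicates 1 or 3 or control replicates 1 or 3, while 2 were called without hypoxia replicate 2 and 4 without control replicate 2 or on the TPM scale. The cldne row lost its call without control replicate 2 (adjusted p = 0.0520), and cartilage kept both calls without hypoxia replicate 3 and 1 of them, col11a1b, with any other library left out.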

How the data were processed

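The FPKM values, 1 column per library over 40538 rows, were deposited by the authors; the submitters' processing notes name HISAT and StringTie, with no version, genome build or annotation, each not given in the sources used here. Assembled loci (37062 MSTRG rows) can merge or split genes, and an exact 0 can be a failed estimate. No value column was left unmatched to a library (0 columns). The absolute depth is unknown, so precision is given as the spread over 3 libraries.

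Tests ran over the 25111 rows whose mean reached 1 FPKM, on log2(FPKM + 1), which understates changes of low genes, with the two-sided test of limma 3.58.1 under R 4.3.3 (eBayes, trend on the mean), hypoxia minus control by label, without covariates and with Benjamini-Hochberg adjustment over all tested rows at 0.05. Every adjusted p is from this test. The script was tested on simulated data. The members, the 6 function lists and the 7 marker lists were chosen with earlier results of these data known. Rows are named by a rule: every member, up to 5 called rows per function list with the smallest p, and at most 2 as values where none passed; dnajc3a completes a count. Symbols were matched in lower case with copy endings. No protein or promoter sequences were used here. No row carries a mucin name, so no summed mucin level was computed. Pearson correlations of same-numbered libraries' deviations from their group means were -0.056, -0.044 and -0.116, and the labels give no pairing. The alternatives are described in the closing section.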

Additional observations from a re-analysis of the deposited data

How the results depend on the processing

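agr2 kept its direction in all 14 alternatives tried and SPDEF in all 13 in which it could be tested; SPDEF is below a minimum mean of 5 FPKM. agr2 passed the threshold with that minimum (log2 difference 1.41, limma adjusted p = 0.0484), which made the number of members called higher 1 in place of 0. With that minimum 11390 rows were tested and 1667 called, and the reason for the change in agr2 was not tested. In the other alternatives no member was called, and none was called lower in any. With 1 library left out, the log2 difference was 1.03 (without hypoxia replicate 2) to 1.75 (without hypoxia replicate 3) for agr2 and 0.13 to 0.44 for SPDEF. The number of all rows called was 1699. It was 1058 without a filter on low values, and with 1 library left out it was 255 (without hypoxia replicate 1) to 1575 (without hypoxia replicate 2). The calls split into 870 higher and 829 lower, into 595 and 949 on the TPM scale, and into 700 and 1029 with median-of-ratios scaling. With the replicate number as a block, a pairing that neither the labels nor the deviations bear out, 2 rows were called, and agr2 had an adjusted p of 0.151. Among single genes followed in this way, the direction turned for uncalled ones: with 1 library left out xbp1 was between -0.61 and 0.28, with 0.25 without hypoxia replicate 2 and 0.28 without control replicate 2, and ern2 (MSTRG.24375) was between -0.06 (without hypoxia replicate 3) and 0.29; the cause was not tested.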
